A study of Arabidopsis thaliana with 39 samples.

Results

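The histone H3.1 and H3.3 genes of Arabidopsis were followed through a heat time course in wild type (WT) and *morchex* and in the Ler and *lug* libraries. The genes were taken by their AGI identifiers, 5 for H3.1 (HTR1, AT5G65360; HTR2, AT1G09200; HTR3, AT3G27360; HTR9, AT5G10400; HTR13, AT5G10390) and 3 for H3.3 (HTR4, AT4G40030; HTR5, AT4G40040; HTR8, AT5G10980), which are 8 of the 33602 genes in the heat tables. WT was the Columbia accession Col-0, and *morchex* carried mutations in 6 MORC genes (alleles *morc1-2*, *morc2-1*, *morc4-1*, *morc5-1*, *morc6-3* and *morc7-1*) in the same accession. MORC proteins are nuclear ATPases that compact DNA and help to keep genes and transposons silent. The heat series held 3 WT libraries at each of T0 (before heat), T30 (after 0.5 h of heat) and T48 (48 h, a recovery period without heat according to the methods), and 3, 2 and 2 *morchex* libraries at the same time points. The second set held 3 libraries of Ler (Landsberg erecta wild type) and 3 of *lug*, a mutant in that accession of the transcriptional corepressor LEUNIG, with no heat treatment named in the labels and no *lug* allele given in the sources used here. The labels give floral tissue of plants aged 5 to 6 weeks for every library and do not say whether replicates came from separate plants, so the p-values measure the spread between these libraries, which may be technical.

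Histone H3 and H4 form the core tetramer of the nucleosome. In plants, as in animals, H3.1 is supplied mainly in S phase and is deposited behind the replication fork by the CAF-1 complex, whereas H3.3 is made through the cell cycle and is deposited independently of replication, in large part by the HIRA complex and at transcribed genes. The ratio of their transcripts is thus often read beside cell proliferation in growing tissue.

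The 8 genes each hold a coding sequence of 411 nt, and the RefSeq annotation of TAIR10.1 (the nuclear chromosomes of TAIR10, the build of the files) places all of them on the minus strand. All 5 H3.1 coding sequences encode 1 protein and all 3 H3.3 coding sequences encode another, and the classes encode different residues at 4 codons (32, 42, 88 and 91, counted from the start codon). The H3.1 genes have 0 introns, whereas HTR8 has 2, HTR4 has 3 and HTR5 has 4. The H3.1 genes lie at chr5:26119859-26120581 (HTR1), chr1:2971571-2972334 (HTR2), chr3:10129105-10129937 (HTR3), chr5:3270172-3270957 (HTR9) and chr5:3268847-3269550 (HTR13). The H3.3 genes lie at chr4:18555532-18557106 (HTR4), chr4:18557171-18558945 (HTR5) and chr5:3472405-3473570 (HTR8). HTR9 and HTR13 are neighbours, as are HTR4 and HTR5. Coding bases 88 to 129 (codons 30 to 43) are printed for 3 genes of each class because they show how far the genes diverge in synonymous positions while the proteins stay the same. The capitals mark codons 32 and 42.
HTR1: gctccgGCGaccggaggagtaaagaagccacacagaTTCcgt
HTR2: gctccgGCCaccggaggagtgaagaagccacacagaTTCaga
HTR13: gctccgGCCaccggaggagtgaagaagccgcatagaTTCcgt
HTR4: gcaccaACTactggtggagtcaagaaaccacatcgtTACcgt
HTR5: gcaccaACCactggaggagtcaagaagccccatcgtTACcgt
HTR8: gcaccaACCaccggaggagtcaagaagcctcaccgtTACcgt
Over the whole coding sequence, pairs of H3.1 genes were 80.3% to 89.5% identical, pairs of H3.3 genes 78.6% to 88.8%, and pairs between the classes 74.0% to 80.3%. The longest stretch shared without a mismatch was 59 nt. The expected counts of 7 of the 8 genes were whole numbers (within 0.01) in 22 of 22 libraries, so no read was split between genes there. HTR3 was the exception. It overlaps the same-strand gene SDH2-1 (a succinate dehydrogenase subunit) by 328 bp, its counts were whole in 0 of 22 libraries, and the sum of HTR3 and SDH2-1 was whole in 22 of 22. The level of HTR3 is therefore uncertain throughout.

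Plant histone genes are known for short promoter elements, among them the octamer CGCGGATC and the hexamer ACGTCA, and the 250 bases upstream of each annotated start were searched for both on both strands. The stretches below are from the TAIR10.1 genome, 5′ to 3′ on the strand of the gene, and capitals mark the octamer or the hexamer. They are shown for the H3.1 genes that hold the octamer, for HTR13, whose transcript fell most in heat (given below), and, over 100 bases, for HTR5. The stretches of HTR3 and HTR4 overlap an exon of the neighbouring gene and are not printed.
HTR1, chr5:26120582-26120831, minus strand: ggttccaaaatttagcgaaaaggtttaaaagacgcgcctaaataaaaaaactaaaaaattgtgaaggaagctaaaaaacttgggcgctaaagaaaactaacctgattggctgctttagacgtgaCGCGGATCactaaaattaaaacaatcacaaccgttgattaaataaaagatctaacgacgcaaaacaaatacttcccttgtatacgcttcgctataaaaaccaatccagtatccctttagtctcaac
HTR2, chr1:2972335-2972584, minus strand: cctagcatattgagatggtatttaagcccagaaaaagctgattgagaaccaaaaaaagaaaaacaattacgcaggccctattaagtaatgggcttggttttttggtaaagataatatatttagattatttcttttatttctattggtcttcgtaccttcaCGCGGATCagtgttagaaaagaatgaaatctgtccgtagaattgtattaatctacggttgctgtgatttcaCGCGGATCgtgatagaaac
HTR9, chr5:3270958-3271207, minus strand: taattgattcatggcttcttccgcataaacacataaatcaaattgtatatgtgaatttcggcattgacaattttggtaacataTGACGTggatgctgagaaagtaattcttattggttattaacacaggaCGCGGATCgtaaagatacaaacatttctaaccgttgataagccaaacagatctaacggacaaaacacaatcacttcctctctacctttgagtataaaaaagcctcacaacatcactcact
HTR13, chr5:3269551-3269800, minus strand: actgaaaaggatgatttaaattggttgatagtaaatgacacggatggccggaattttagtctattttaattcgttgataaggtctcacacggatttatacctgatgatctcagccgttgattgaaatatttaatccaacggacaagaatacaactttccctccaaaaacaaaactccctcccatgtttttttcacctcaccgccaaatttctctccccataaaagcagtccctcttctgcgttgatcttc
HTR5, chr4:18558946-18559045, minus strand: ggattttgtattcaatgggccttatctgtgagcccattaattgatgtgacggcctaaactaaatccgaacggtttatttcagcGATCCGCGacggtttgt
The octamer was found in HTR1, HTR9, HTR5 and at 2 positions of HTR2, that is in 3 of 5 H3.1 genes and 1 of 3 H3.3 genes. It was present in 0.135% of 27443 promoters of the same length and in 2 of 8 histone H4 genes. The hexamer was found in HTR3, HTR9 and HTR8 and in 7.67% of all promoters. HTR13 and HTR4 held neither. None of the 8 held the nonamer CATCCAACG (0.149% of promoters) or a telo-box AAACCCTA (4.84%). A heat shock element made of alternating GAA and TTC blocks (0.401%) was absent too. So was an E2F-type site in the 4 spellings searched (TTTCCCGC, TTTGGCGC, TTTGCCGC or TTTCGCGC). These spellings were present in 1.46% of promoters and in 10 of 18 DNA replication genes. Other E2F-type spellings were not searched. A match is a description of the letters in this window. The transcript of HTR2 is 764 nt in this annotation and 607 nt in the deposited data. HTR9 (786 and 664 nt) and HTR8 (818 and 714 nt) differ as well, while HTR1, HTR3 and HTR13 have the same length in both. For HTR2, HTR9 and HTR8 the start site is therefore uncertain, as are positions counted from it. The gap between the HTR9 and HTR13 genes begins at chr5:3269595, so the 3′ end of the HTR13 stretch lies inside the annotated gene.

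The expected counts summed to 8.61 to 15.3 M (M, 1000000 counts) in the WT libraries, 12.8 to 25.1 M in *morchex* and 11.4 to 15.9 M in Ler and *lug*. At each time point every *morchex* library was deeper than every WT library. At T48 the sums were 10.5, 9.46 and 11.7 M in WT and 24.4 and 25.1 M in *morchex* (replicates 2 and 3). The part of depth in the genotype comparisons was not tested. Levels are given as TPM (a transcript abundance corrected for gene length and library size), and fold changes as log2 values with their standard error (SE) from edgeR's quasi-likelihood test on counts scaled by TMM, which centres the bulk of genes. The TMM factors were 0.752 to 0.876 at T30, 1.01 to 1.06 at T0 and 1.16 to 1.24 at T48. Without TMM the median of all genes tested moved to -0.41 for T30 against T0 in WT, -0.30 in *morchex*, 0.19 for T48 against T0 in WT and 0.27 in *morchex*, so TPM shows larger falls at T30 and larger rises at T48 than the fitted values do. A gene was called at a Benjamini-Hochberg adjusted p under 0.05 and a fold change over 2, and a gene that met the first condition alone is said to have passed the test. The heat treatment itself was visible in HSP101 and HSFA2, which rose in WT by 9.29 and 10.75 on the log2 scale. The labelled tissue was not borne out by its markers. Of 7 floral homeotic genes, AP1 and SEP2 stayed at or below 0.15 TPM, AP3 at or below 0.65 TPM and PI at or below 2.03 TPM in all 22 libraries, while AG (0.71 to 3.77 TPM), SEP1 (0.75 to 5.83 TPM) and SEP3 (2.08 to 90.8 TPM) were detected in each. The 12 anther and pollen genes summed to at most 3.74 TPM (MS1, A9, A6, DYT1, DUO1 and HTR10 at 0 throughout) and the 3 meristem genes to at most 0.33 TPM, while RBCS1A, a leaf gene for Rubisco, was at 21179 TPM or more. Whether this bears on the H3 levels was not tested.

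At T0 the H3.3 genes HTR4 and HTR5 stood above the rest. HTR4 was at 268, 323 and 310.3 TPM in the 3 WT libraries and at 254, 251 and 279 TPM in the 3 *morchex* libraries. HTR5 was at 283, 292 and 267 TPM in WT and at 251, 278 and 281 TPM in *morchex*. The order of the group means in WT was HTR4, HTR5, HTR8, HTR2, HTR1, HTR9, HTR13 and HTR3. HTR4 and HTR5 overlapped, as did HTR8 with HTR2, HTR2 with HTR1, and HTR9 with HTR13, so these neighbours did not differ beyond their spread. HTR5 and HTR8, HTR1 and HTR9, and HTR13 and HTR3 were separated in every library. Of the H3.1 genes, HTR1 and HTR2 together made up most of the class at T0 in WT, with 32.8% ± 1.5 and 35.2% ± 1.4 (SD, n = 3) of the summed TPM, against 15.6% ± 1.4 for HTR9, 12.3% ± 1.9 for HTR13 and 4.22% ± 1.47 for HTR3. Fewer cells that transcribe a gene and less transcript per cell cannot be told apart in such bulk libraries.

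**Figure D1:**
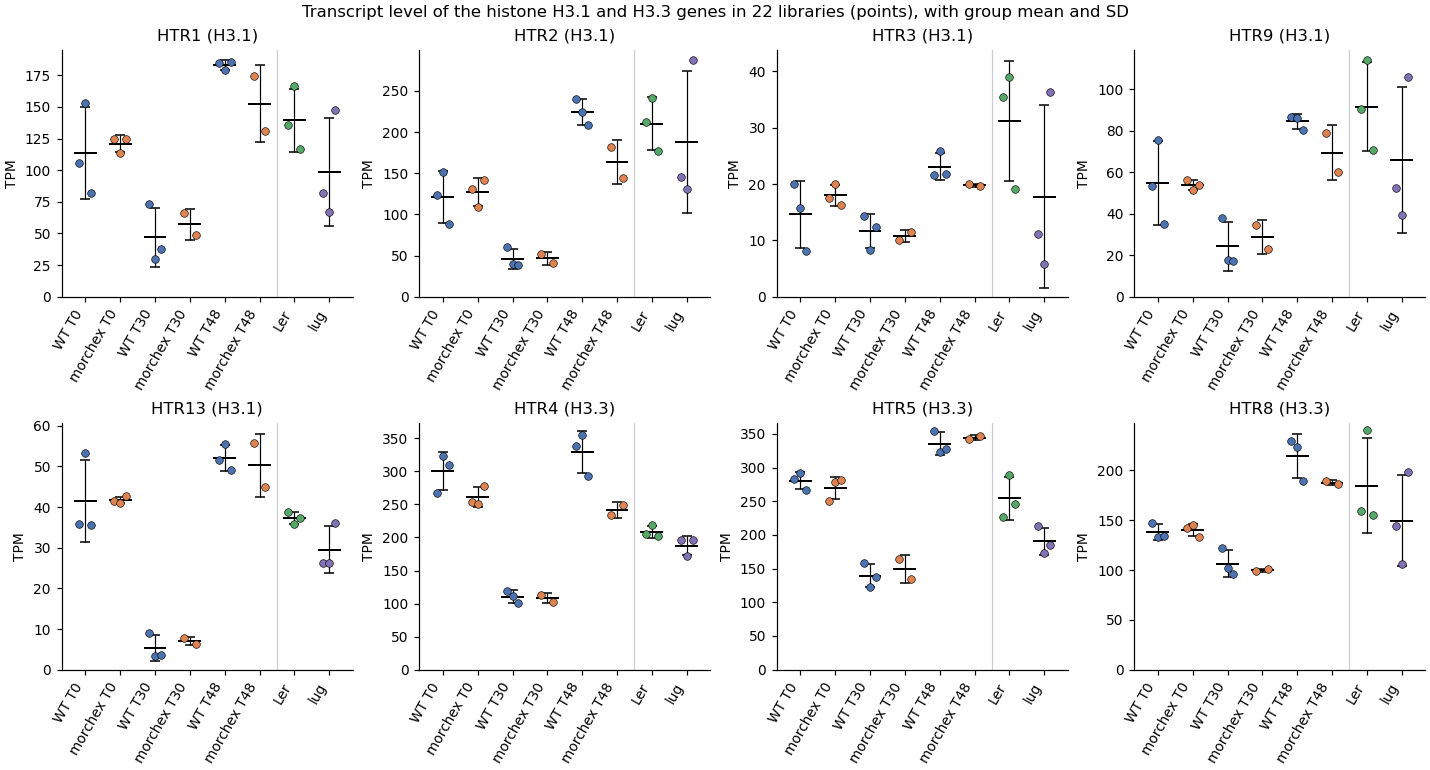
TPM of each of the 8 genes (y axis, linear from 0, a different range for each gene) in the 22 libraries by group (x axis). Points are libraries, horizontal bars the group mean and error bars the SD. HTR13 lies at 35.7 TPM or more in all T0 libraries and at 9.04 TPM or less in all T30 libraries.

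Most H3.1 transcripts were lower in WT after 0.5 h of heat. In WT, 4 of 5 H3.1 genes and 2 of 3 H3.3 genes passed the test, all of them lower at T30, which is 6 of 8 beside 19.7% of all genes tested that were lower at any fold. The calls with a fold change over 2 were HTR13 and HTR4, 2 of 8 beside 7.2% of all genes. In *morchex*, 3 of 5 H3.1 genes and 2 of 3 H3.3 genes were lower (14.9% of all genes), and the calls over 2-fold were HTR13 and HTR2, 2 of 8 beside 5.17% of all genes. No member was higher at T30 in either genotype, where 19.3% of all genes tested in WT and 15.2% in *morchex* were (6.21% and 5.59% over 2-fold). The WT count of 2 rested on single libraries: it was 1 without T0 replicate 2 or without T30 replicate 3, 4 without T0 replicate 3 and 5 without T30 replicate 1, and the *morchex* count was 2 or 3.

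HTR13 had the largest fitted fall of the 8 genes in both genotypes. In WT it was at 35.8, 53.2 and 35.7 TPM at T0 and at 9.04, 3.25 and 3.60 TPM at T30. In *morchex* it was at 41.4, 41.1 and 42.6 TPM at T0 and at 7.84 and 6.41 TPM at T30. No T30 library reached the lowest T0 library. The log2 fold change was -2.51 (SE 0.26, adjusted p = 3.39e-06) in WT and -2.27 (SE 0.28, adjusted p = 2.41e-05) in *morchex*. Its share of the summed H3.1 TPM went from 12.3% ± 1.9 to 3.74% ± 0.78 (SD, n = 3) in WT and from 11.6% ± 0.6 (n = 3) to 4.76% ± 0.24 (SD, n = 2) in *morchex*.

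HTR2 was at 124, 151 and 87.8 TPM at T0 and at 60.1, 39.8 and 38.8 TPM at T30 in WT. In *morchex* it was at 131, 109 and 141 TPM at T0 and at 52.5 and 40.6 TPM at T30. The groups did not overlap, and the log2 fold change was -0.98 (SE 0.19, adjusted p = 0.0011) in WT and -1.18 (SE 0.22, adjusted p = 0.000944) in *morchex*. HTR1 was at 106, 153 and 81.9 TPM at T0 and at 73.6, 29.6 and 37.7 TPM at T30 in WT, so that T30 replicate 1 stood close to the lowest T0 library. In *morchex* HTR1 was at 125, 113 and 125 TPM at T0 and at 65.9 and 48.6 TPM at T30. The log2 fold change was -0.87 (SE 0.26, adjusted p = 0.0147) in WT and -0.81 (SE 0.29, adjusted p = 0.0449) in *morchex*. Without TMM the T30 falls of HTR1 read -1.25 in WT and -1.09 in *morchex*. In WT HTR1 no longer passed the test without T0 replicate 2 (adjusted p = 0.0895) and without T30 replicate 2 (0.0651) or 3 (0.0594), and in *morchex* it no longer passed without any of its 5 libraries (adjusted p 0.0603 to 0.248, edgeR).

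HTR9 was at 53.2, 75.6 and 35.1 TPM at T0 and at 38.0, 17.5 and 17.2 TPM at T30 in WT, where T30 replicate 1 was above the lowest T0 library. In *morchex* HTR9 was at 56.1, 51.4 and 53.9 TPM at T0 and at 34.6 and 23.0 TPM at T30, with no overlap. The fold change of -0.76 (SE 0.28) passed the test in WT (adjusted p = 0.0404), and that of -0.63 (SE 0.30) in *morchex* did not (adjusted p = 0.124). The WT result of HTR9 was lost without T0 replicate 1 (adjusted p = 0.0728) or 2 (0.218) and without T30 replicate 2 (0.139) or 3 (0.148). HTR3, whose counts share reads with SDH2-1, was at 20.0, 15.7 and 8.13 TPM at T0 and at 14.3, 8.38 and 12.4 TPM at T30 in WT, and at 17.5, 20.1 and 16.4 TPM against 10.1 and 11.5 TPM in *morchex*. Its adjusted p was 0.878 in WT and 0.222 in *morchex*.

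Among the H3.3 genes, HTR4 and HTR5 were lower at T30 in every library of both genotypes, and HTR8 did not pass the test. HTR4 was at 119, 112 and 100.4 TPM at T30 in WT and at 113 and 103 TPM in *morchex*, below all T0 libraries given above. Its log2 fold change was -1.04 (SE 0.11, adjusted p = 3.57e-06) in WT and -0.99 (SE 0.12, adjusted p = 3.03e-05) in *morchex*, on either side of the 2-fold limit of a call. HTR5 was at 158, 123 and 138 TPM at T30 in WT and at 164 and 134 TPM in *morchex*. Its log2 fold change was -0.61 (SE 0.09, adjusted p = 0.000132) in WT and -0.57 (SE 0.10, adjusted p = 0.000852) in *morchex*. HTR8 was at 147, 133 and 134 TPM at T0 and at 122, 102 and 95.7 TPM at T30 in WT, and at 142, 145 and 134 TPM at T0 and 98.8 and 101 TPM at T30 in *morchex*. The TPM groups of HTR8 did not overlap, but its fitted fold changes were 0.03 (adjusted p = 0.857) in WT and -0.21 (adjusted p = 0.21) in *morchex*. Without TMM they were -0.35 (adjusted p = 0.014) and -0.50 (adjusted p = 0.00473), so the test result, and in WT the direction, of HTR8 depends on the scaling. Under that scaling 7 of 8 members in WT and 8 of 8 in *morchex* passed as lower, and the numbers with a fold change over 2 became 5 and 4.

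A difference in heat response between the genotypes was not detectable for the 8 genes. The interaction of genotype and heat had log2 values from -0.50 to 0.24 with SE of 0.14 to 0.40, and 0 of 8 members passed with edgeR (lowest adjusted p = 0.655), 0 at an unadjusted p under 0.05 and 0 with DESeq2. Of all genes tested, 0% were higher and 0.00531% lower in that interaction.

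Both class sums, given as descriptions with no test, were lower after heat. The summed H3.1 TPM in WT was 338, 449 and 249 at T0 and 195, 98.6 and 109.6 at T30. In *morchex* it was 371, 335 and 379 at T0 and 171 and 130.1 at T30. The summed H3.3 TPM in WT was 698, 748 and 711 at T0 and 399, 336 and 334 at T30. In *morchex* it was 647, 674 and 693 at T0 and 376 and 338 at T30. In TPM neither class overlapped between T0 and T30 in either genotype. On TMM-scaled counts HTR1, HTR3, HTR9 and HTR8 each overlapped between T0 and T30 in WT. The log2 ratio of the group means was -1.36 for H3.1 and -1.01 for H3.3 in WT, and -1.26 and -0.91 in *morchex*. The ratio of H3.1 to H3.3 was 0.48, 0.60 and 0.35 at T0 and 0.49, 0.29 and 0.33 at T30 in WT, which overlap, and 0.57, 0.50 and 0.55 against 0.45 and 0.38 in *morchex*, which do not.

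**Figure D2:**
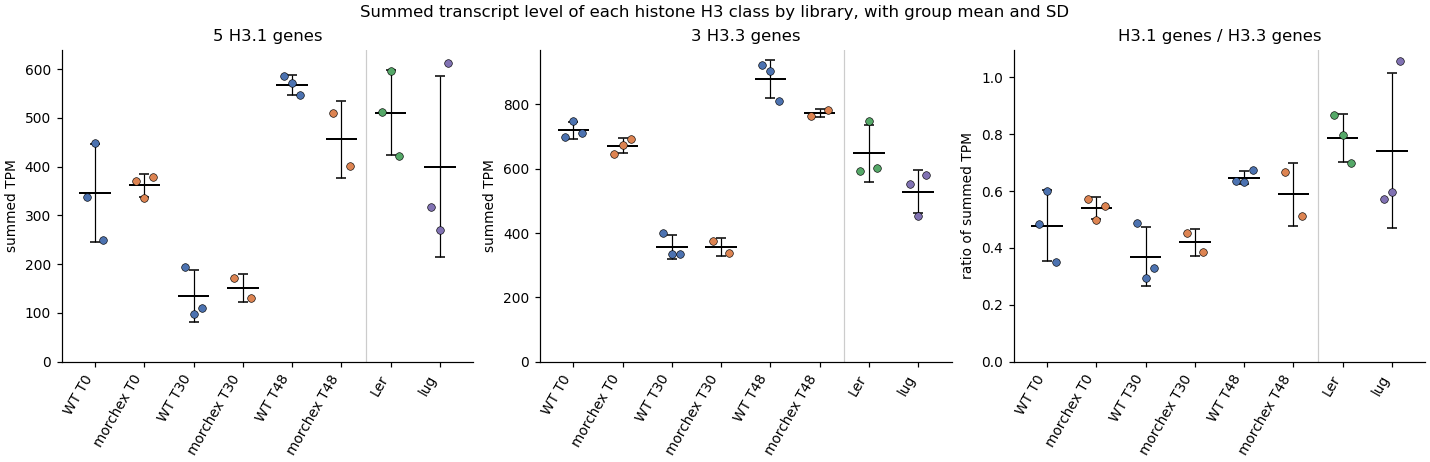
Summed TPM of the 5 H3.1 genes (left), of the 3 H3.3 genes (middle) and the ratio of the sums (right) on the y axes, by group on the x axis. Points are libraries and bars the group mean and SD. The T30 sums lie below all T0 sums of the same genotype, and *lug* replicate 3 has the highest ratio (1.06).

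Within H3.3 the makeup shifted with heat as well. HTR4 made up 41.7% ± 2.9 (SD, n = 3) of the class at T0 and 31.1% ± 1.9 (n = 3) at T30 in WT, while HTR8 made up 19.2% ± 1.7 and 29.8% ± 1.0. In *morchex* HTR4 made up 38.9% ± 1.5 (n = 3) and 30.2% ± 0.2 (n = 2), and HTR8 20.9% ± 1.5 and 28.0% ± 2.5. The share of HTR5 was 39.0% ± 1.6 and 39.1% ± 2.5 in WT, within the spread.

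**Figure D3:**
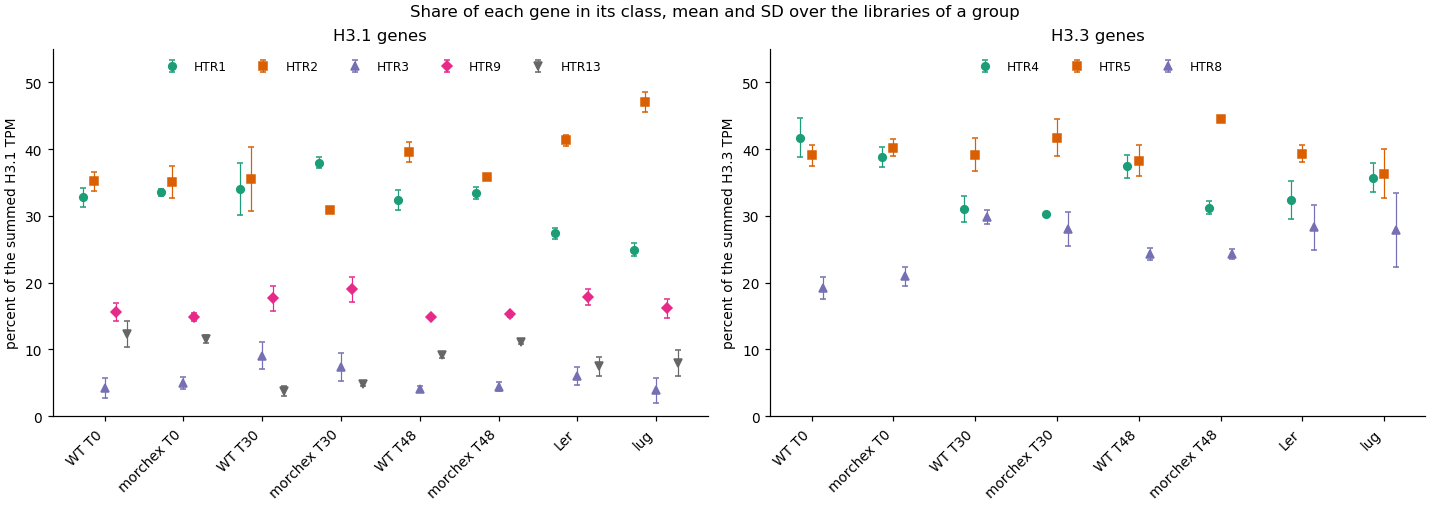
Share of each gene in the summed TPM of its class (y axis, percent) by group (x axis), with the mean and SD over 2 or 3 libraries. HTR13 is at 12.3% in WT T0 and 3.74% in WT T30, and HTR8 at 19.2% and 29.8% of the H3.3 class.

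By T48 the members had returned to their T0 level or stood above it in WT. In WT, 2 of 8 members passed the test as higher at T48 than at T0, beside 20.2% of all genes tested, and none as lower (17.8% of all genes). None changed over 2-fold, where 9.39% of all genes were called higher and 4.3% lower. HTR2 was at 241, 224 and 209 TPM, above every T0 library, with a log2 fold change of 0.69 (SE 0.19, adjusted p = 0.00885). HTR8 was at 229.8, 224 and 189 TPM, also above every T0 library, with 0.44 (SE 0.11, adjusted p = 0.00469). The other 6 had fitted values from -0.06 (HTR4) to 0.50 (HTR1). HTR1 was at 185, 179 and 186 TPM, HTR9 at 86.8, 86.3 and 80.6 TPM and HTR3 at 21.6, 25.9 and 21.8 TPM, all above the T0 libraries in TPM. HTR13 was at 51.5, 55.5 and 49.1 TPM and HTR4 at 338, 355 and 294 TPM, overlapping with T0. HTR5 was at 355, 324 and 328 TPM, above every T0 library in TPM. On TMM-scaled counts HTR9, HTR3 and HTR5 overlapped with T0, while HTR1 stayed above it. With limma on log2(TPM + 1), 5 of 8 members passed as higher in WT.

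In *morchex* only HTR4 passed the test at T48 against T0, as lower (1 of 8 beside 25.1% of all genes), and none passed as higher (28.3% of all genes). This count turned with the scaling: without TMM 1 member passed as higher (HTR8) and 0 as lower, and with limma on log2(TPM + 1) 2 passed as higher (HTR5 and HTR8) and 0 as lower. Over 2-fold no member was called, beside 13.8% of all genes higher and 12.4% lower. HTR4 was at 233 and 249.6 TPM, with a log2 fold change of -0.44 (SE 0.12, adjusted p = 0.00586). Without TMM this value was -0.20 (adjusted p = 0.177). HTR5 was at 342 and 347 TPM and HTR8 at 189.8 and 186 TPM, above every T0 library in TPM, with fitted values of 0.02 and 0.09. The H3.1 genes had fitted values from -0.19 (HTR3) to 0.03 (HTR9). HTR1 was at 174 and 131 TPM, HTR2 at 182 and 145 TPM, HTR9 at 79.0 and 60.04 TPM, HTR13 at 55.7 and 44.8 TPM and HTR3 at 20.0 and 19.6 TPM. Replicate 2 was above replicate 3 for all 5. In TPM HTR1, HTR2, HTR9 and HTR13 were also above every *morchex* T0 library, HTR3 overlapped with T0, and HTR4 was below it. On TMM-scaled counts HTR1, HTR2, HTR9, HTR13 and HTR5 overlapped with T0, HTR8 was above it, and HTR3 and HTR4 were below it. The 3 leaf genes moved with T48 in both genotypes: their summed TPM was 51732 to 63418 over the 6 T0 libraries and 32318 to 37756 over the 5 T48 libraries. Their part in the T48 results was not tested.

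The summed H3.1 TPM at T48 was 585, 571 and 546 in WT and 511 and 400.3 in *morchex*, and the summed H3.3 TPM was 923, 902 and 811 in WT and 765 and 783 in *morchex*. The sums of T48 lay above those of T0 in both genotypes, with log2 ratios of the means of 0.72 (H3.1) and 0.29 (H3.3) in WT and 0.33 and 0.21 in *morchex*. On TMM-scaled counts the *morchex* ratios were -0.0048 and -0.12. The ratio of H3.1 to H3.3 was 0.63, 0.63 and 0.67 in WT at T48, above all 3 T0 libraries, and 0.67 and 0.51 in *morchex*, which overlaps with T0.

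**Figure D4:**
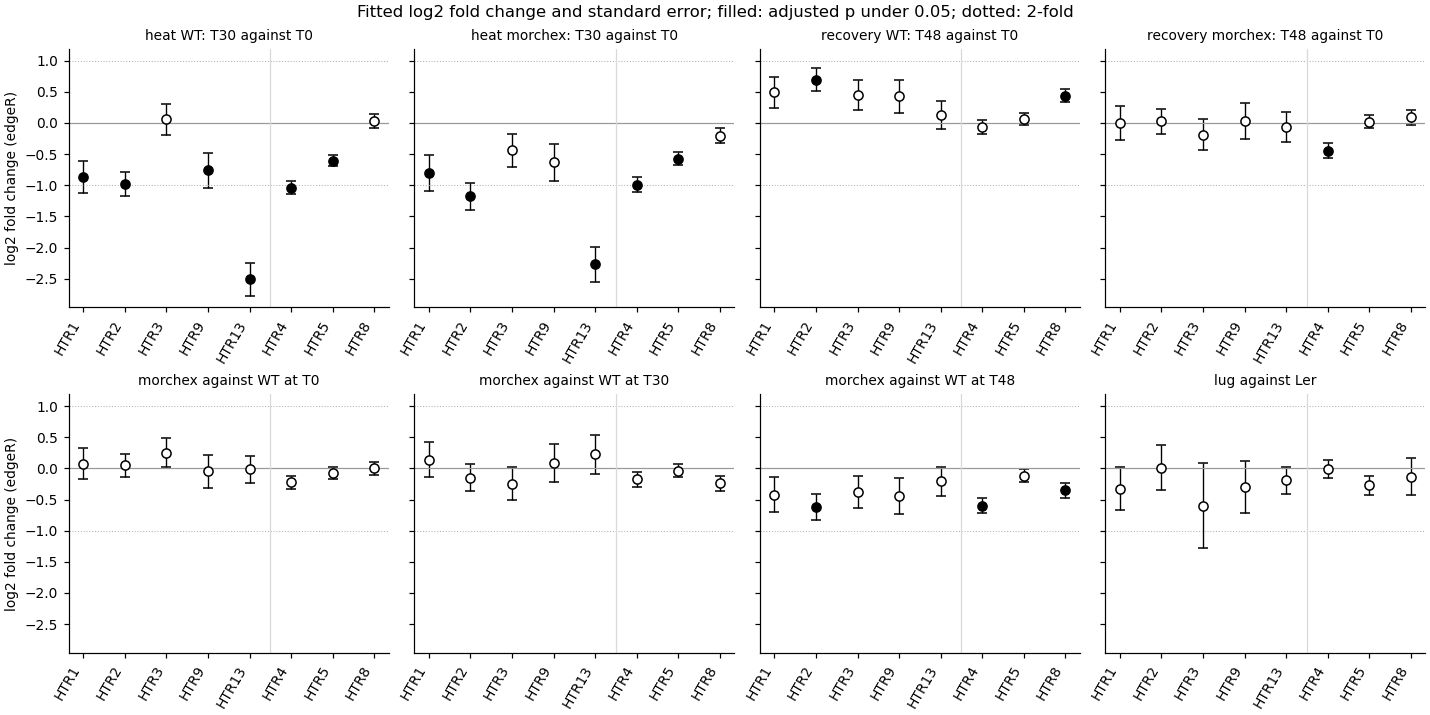
Fitted log2 fold change (y axis, error bars are the SE) of the 8 genes (x axis) in 8 comparisons. Filled points have an adjusted p under 0.05 and dotted lines mark a 2-fold change. HTR13 is the lowest point in both heat panels (-2.51 and -2.27), and all 8 points lie below 0 for *morchex* against WT at T48, where HTR5 turns to 0.04 on log2(TPM + 1).

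To ask whether the loss of MORC proteins altered histone H3 transcripts, *morchex* was compared with WT at each time point. At T0 the fitted values lay between -0.22 (HTR4) and 0.25 (HTR3) with SE of 0.09 to 0.26. None of the 8 passed with edgeR (0.255% of all genes were higher and 0.0584% lower, 0.244% and 0.0478% over 2-fold), 0 had an unadjusted p under 0.05, and 0 passed with DESeq2. At T30 the values lay between -0.25 (HTR3) and 0.22 (HTR13), and again 0 of 8 passed with edgeR (0.919% of all genes higher and 0.643% lower, 0.467% and 0.122% over 2-fold), at an unadjusted p under 0.05 or with DESeq2 after adjustment. In WT and in *morchex* the libraries of all 8 genes overlapped in TPM at both time points. The summed H3.3 TPM did not overlap at T0, where *morchex* lay below WT (log2 ratio of the means -0.10). HTR8 lay below WT in *morchex* at T30 on TMM-scaled counts (-0.23). With DESeq2 1 member had an unadjusted p under 0.05 at each of these time points.

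At T48, 3 of 8 members were lower in *morchex* than in WT, beside 12.5% of all genes tested, 0 were higher (12.6% of all genes), and none changed over 2-fold (2.89% of all genes were called higher and 3.31% lower). All 8 fitted values were negative, from -0.62 (HTR2) to -0.12 (HTR5), but HTR5 turned to 0.04 with limma on log2(TPM + 1). Without TMM, and with limma, 1 member passed as lower (HTR4). HTR4 was at 338, 355 and 294 TPM in WT and at 233 and 249.6 TPM in *morchex*, with no overlap and a log2 difference of -0.60 (SE 0.12, adjusted p = 0.0029), which passed the test in all 12 alternatives run. HTR2 was lower by a log2 difference of -0.62 (SE 0.21, adjusted p = 0.0406) and HTR8 by -0.35 (SE 0.12, adjusted p = 0.0435). HTR2 kept an adjusted p under 0.05 in 4 of 12 alternatives (adjusted p 0.0181 to 0.281) and HTR8 in 2 of 12 (0.0105 to 0.228), and leaving out either *morchex* library or WT replicate 1 or 2 took both past an adjusted p of 0.05. For HTR8 the TPM values of WT (189 in replicate 3) and *morchex* (189.8 in replicate 2) overlapped.

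The change of the genotype effect from T0 to T48 was tested by the interaction. All 8 values were negative, from -0.67 (HTR2) to -0.04 (HTR5), and 7 of 8 without TMM. None passed with edgeR (lowest adjusted p = 0.144, HTR2) or with DESeq2, beside 5.1% of all genes lower and 3.78% higher (2.38% and 1.31% over 2-fold). With edgeR 3 members (HTR2, HTR4 and HTR8) had an unadjusted p under 0.05, but 0 had without TMM and 0 with limma on log2(TPM + 1). A different recovery of the H3 genes in *morchex* was therefore not detectable at this number of libraries, and the T48 difference is not shown to differ from that at T0.

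Ler and *lug* were compared in a separate fit. None of the 8 members passed with edgeR (0.21% of all genes were higher and 0.204% lower), none at an unadjusted p under 0.05, and none with DESeq2, and the fitted values lay between -0.60 (HTR3) and 0.01 (HTR2) with SE of 0.15 to 0.68. The spread within *lug* was wide for the H3.1 genes, where replicate 3 stood apart. HTR2 was at 213, 241 and 177 TPM in Ler and at 145, 131 and 287 TPM in *lug*. HTR1 was at 136, 166 and 117 TPM in Ler and at 82.3, 66.9 and 147 TPM in *lug*. HTR9 was at 90.3, 114 and 70.9 TPM in Ler and at 52.7, 39.3 and 106 TPM in *lug*. HTR3 was at 35.5, 39.0 and 19.1 TPM in Ler and at 11.2, 5.83 and 36.3 TPM in *lug*. In each of these 4 genes *lug* replicate 3 was in or above the range of Ler and the other 2 *lug* libraries were below it.

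HTR13 was at 38.8, 35.7 and 37.4 TPM in Ler and at 26.3, 26.2 and 36.1 TPM in *lug*. Here too only *lug* replicate 3 lay in the range of Ler, and the other *lug* libraries lay below it. Of the H3.3 genes, HTR4 was at 205, 218 and 202 TPM in Ler and at 196, 172 and 196 TPM in *lug*. HTR5 was at 227, 289.8 and 246 TPM against 213, 174 and 186 TPM. Both were without overlap in TPM. On TMM-scaled counts HTR4 overlapped (log2 ratio of the means -0.01) and HTR5 did not (-0.27). HTR8 was at 159.5, 240.5 and 155 TPM against 144, 107 and 198 TPM, again with only *lug* replicate 3 in the range of Ler and the others below it. The ratio of H3.1 to H3.3 was 0.87, 0.80 and 0.70 in Ler and 0.57, 0.60 and 1.06 in *lug*. Without *lug* replicate 3 the log2 ratio of the H3.1 sums went from -0.35 to -0.80. The flower gene SEP3 was at a mean of 15.9 TPM in Ler and 58.4 TPM in *lug*, and its part in these values was not tested. Leaving out 1 library at a time left 0 members called in each case.

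The other genes of histone supply were counted beside the members, and 0 genes of these lists passed with edgeR between *morchex* and WT at T0 or T30 or between *lug* and Ler. Histone H4 pairs with H3, and its 8 genes were chosen as a list. In heat 6 of 8 were lower in WT and 6 of 8 in *morchex*, beside 19.7% and 14.9% of all genes, with a median log2 fold change of -0.74 and -1.04, beside -0.87 and -0.81 for the H3.1 genes and -0.03 and -0.01 for all genes tested. AT3G46320 was at 79.5 ± 22.6 TPM at T0 and 22.3 ± 8.6 TPM at T30 in WT (SD, n = 3; log2 fold change -1.42, SE 0.23, adjusted p = 0.000205, edgeR), and AT3G45930 had -1.24 (SE 0.23, adjusted p = 0.000761). At T48 against T0, 0 of 8 H4 genes passed in WT with edgeR or DESeq2, but 3 were higher without TMM and 3 on log2(TPM + 1), and 1 was lower in *morchex*. At T48, 5 of 8 H4 genes were lower in *morchex* than in WT (median -0.63), beside 12.5% of all genes, and 0 were higher. AT5G59970 was at 100.2 ± 16.9 TPM (n = 3) in WT and 48.9 ± 8.2 TPM (n = 2) in *morchex*, with a log2 difference of -1.21 (SE 0.26, adjusted p = 0.00416, edgeR). It was the only gene of these lists that passed the interaction of genotype and recovery with edgeR (-1.31, SE 0.34, adjusted p = 0.0293), while DESeq2 also passed 2 of the 4 mitosis genes as lower. Without TMM the number of H4 genes lower at T48 was 3 of 8, and on log2(TPM + 1) it was 1 of 8.

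The H3 chaperones and readers included the CAF-1 subunits FAS1, FAS2 and MSI1, the HIRA complex, ASF1, NASP, ATRX and the H3.1-specific methyltransferases ATXR5 and ATXR6. In heat 7 of 14 were lower and 1 (UBN1, 0.38, which no longer passed as higher without TMM) higher in WT, and 6 of 14 were lower and 0 higher in *morchex*, beside 19.7% and 14.9% of all genes lower and 19.3% and 15.2% higher. FAS1, the large subunit of CAF-1, was at 4.80 ± 0.40 TPM at T0 and 1.33 ± 0.03 TPM at T30 in WT (SD, n = 3), with a log2 fold change of -1.45 (SE 0.18, adjusted p = 1.94e-05, edgeR). HIRA, of the H3.3 pathway, fell by 0.84 on the log2 scale (SE 0.14, adjusted p = 0.00033) and ASF1A, a chaperone of both, by 1.10 (SE 0.16, adjusted p = 0.000106). In *morchex* NASP fell by 0.97 (SE 0.13, adjusted p = 7.21e-05) and FAS1 by 1.10 (SE 0.19, adjusted p = 0.000427). At T48, 3 of 14 were higher in WT than at T0 (NASP, MSI1 and ATXR5), beside 20.2% of all genes, and in *morchex* 2 were higher and 3 lower, beside 28.3% and 25.1% of all genes. Without TMM the *morchex* split was 6 higher and 1 lower. Between the genotypes at T48, 1 of 14 was higher (CABIN1, 0.44) and 1 lower (ASF1A, -0.46) in *morchex*, beside 12.6% and 12.5% of all genes, and 0 were lower with DESeq2 or without TMM.

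Of the 18 DNA replication genes, 9 were lower in heat in WT and 12 in *morchex*, beside 19.7% and 14.9% of all genes, and none was higher. CDT1A, a licensing factor, was at 4.99 ± 0.65 TPM at T0 and 1.38 ± 0.16 TPM at T30 in WT (SD, n = 3; log2 fold change -1.45, SE 0.18, adjusted p = 2.33e-05, edgeR). At T48 against T0, 1 of 18 was lower in WT (0 lower and 1 higher without TMM) and 15 of 18 in *morchex*, beside 17.8% and 25.1% of all genes, led by CDC6, another licensing factor (-1.13, SE 0.19, adjusted p = 0.000175), although without TMM that count was 4 and on log2(TPM + 1) it was 3. None of the 18 passed the test between the genotypes at T48 (median -0.16), beside 12.5% of all genes lower and 12.6% higher. None passed the interaction of genotype and recovery, beside 5.1% of all genes lower and 3.78% higher. For T48 against T0, the H3.1 genes in *morchex* had a median of 0.00, where the replication genes had -0.53. A gap was present in WT as well, with medians of 0.45 and -0.19. Of 4 mitosis genes, 3 were lower in heat in WT and 2 in *morchex*, beside 19.7% and 14.9% of all genes, and at T48 against T0 2 were lower in WT (1 without TMM) and 3 in *morchex*, beside 17.8% and 25.1%. KNOLLE and CYCB1;2 were lower in *morchex* than in WT at T48 (-1.31, SE 0.33, adjusted p = 0.0106, and -1.54, SE 0.44, adjusted p = 0.0198, edgeR). That is 2 of 4, both over 2-fold, beside 12.5% of all genes lower and 3.31% lower over 2-fold. Levels were low: at T48 the 4 mitosis genes summed to 6.64 to 12.7 TPM in WT and 4.38 to 4.99 TPM in *morchex*. Of 7 other H3 genes, HTR11 and the centromeric HTR12 (CENH3) had enough counts to be tested in the heat libraries. Of these, 0 passed in WT heat and 1 was lower in *morchex* heat, beside 19.7% and 14.9% of all genes lower. Both stayed at no more than 6.63 TPM in any of the 22 libraries, and the sperm-specific HTR10 was listed at 0 in all of them.

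**Figure D5:**
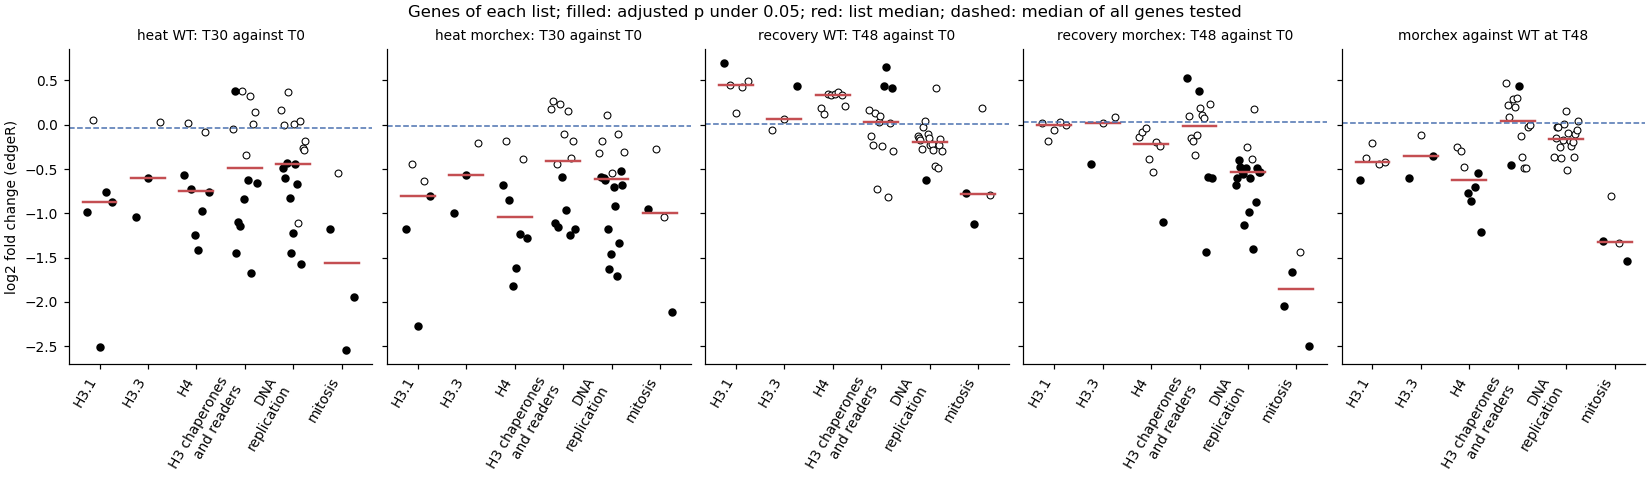
Fitted log2 fold change (y axis) of the genes of 6 lists (x axis) in 5 comparisons. Points are genes, filled where the adjusted p is under 0.05, the red bar is the list median and the dashed line the median of all genes tested. In WT heat the medians are -0.87 for H3.1, -0.61 for H3.3 and -0.74 for H4.

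The genes whose TPM followed the H3.1 sum most closely over the 16 heat libraries (Pearson r on log2(TPM + 1), with no p) were largely other core histone genes. They were HTA6 (a member of the H2A family, r = 0.990), HIS4 (H4, r = 0.990), H2AXA (the H2A.X variant, r = 0.989), HTB2 (H2B, r = 0.986) and AT3G04590 (AT-hook protein AHL14, r = 0.979). HTB2 was at a mean of 147 TPM at T0, 60.2 TPM at T30 and 278 TPM at T48 in WT. The median r of all genes tested was 0.590, and the source of this shared level was not tested. For the H3.3 sum the 5 genes were AT2G36410 (r = 0.993), AT3G07470 (r = 0.990), TCP10 (a TCP transcription factor, r = 0.988), HAM1 (AT2G45160, a GRAS protein of the shoot meristem, r = 0.986) and CAM5 (calmodulin, r = 0.986), none of them a histone gene. Within the classes, r with the own sum was 0.963 to 0.994 for HTR1, HTR2, HTR9 and HTR13 and 0.828 for HTR3, and 0.900 for HTR8 against 0.976 for HTR4 and 0.986 for HTR5. Each of these genes is part of its sum.

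TPL (TOPLESS, a corepressor) and LUG were mapped by ChIP-seq of 3xFLAG-tagged protein, with 1 peak list for each protein in WT and in *morchex*, so no difference between the genotypes can be tested. A peak was assigned to a gene where its summit lay within 1000 bp upstream to 200 bp downstream of the RefSeq start site. In the TPL list of WT, 2 of 8 members had such a peak (HTR3 and HTR4), beside 16.3% of 27444 genes. In the TPL list of *morchex*, 6 of 8 had one (HTR1, HTR2, HTR3, HTR9, HTR4 and HTR8), beside 21.8% of genes. The summit at HTR1 in *morchex* lay 51 bp downstream of the start, with a fold enrichment of 2.29 (rank 4625 of 12224), that at HTR2 lay 5 bp upstream (1.97, rank 7850), and that at HTR8 57 bp downstream (2.58, rank 3927). HTR4 had a summit 149 bp downstream in WT (2.03, rank 5039 of 10267) and 182 bp downstream in *morchex* (2.63, rank 3673). HTR5 was not counted, because its summits lay 304 bp (WT, fold enrichment 2.68) and 363 bp (*morchex*, 3.00) downstream of its start, and HTR8 had a WT summit 275 bp downstream (2.24). HTR13 had no TPL peak over it. The LUG lists held no peak at any of the 8 genes in WT (4.0% of genes) or *morchex* (8.45%). At a -log10 q of at least 10, no member was left in WT (4.15% of genes) and HTR4 and HTR8 in *morchex* (8.4%).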

How the data were processed

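RNA was sequenced in 22 libraries, and the authors deposited RSEM tables with an expected count and a TPM value for each gene, 33602 genes in the heat tables and 64790 genes and transposable elements in the Ler and *lug* tables. The ChIP-seq lists the authors deposited were called with MACS2 2.1.1 after Bowtie2 2.1.0 alignment to TAIR10, 1 library a list, and give for each peak a fold enrichment, -log10 p and q values and an integer score.

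Expected counts were rounded and fitted in R 4.3.3 with edgeR 4.0.16 (TMM, filterByExpr, quasi-likelihood test, Benjamini-Hochberg adjustment over all genes tested). The 16 heat libraries shared 1 fit of 6 groups (18827 genes tested), and Ler and *lug* had a separate fit (17643 genes), since their tables have another reference. All 8 H3 genes passed the filter in both. TPM was used for levels and sums. Alternatives were DESeq2 1.42.0, no TMM, no filter, a fit to the compared groups alone, the replicate number as a block, limma 3.58.1 on log2(TPM + 1) and log2(TPM + 0.1), other call rules, and leaving out each library. The fits were tested on simulated data for *morchex* against WT at T30 and *lug* against Ler. Changes of 1.5 and 2.5 on the log2 scale were recovered at 97% to 100%. Both simulations used the spread of the heat fit (biological coefficient of variation 0.155), whereas that of the Ler and *lug* fit was 0.283. They therefore do not show the power for changes under 2-fold or for the real *lug* comparison. Levels are given for all 8 genes and fold changes with SE for those with an adjusted p under 0.05. The genes most alike were the 5 with the highest r per class. The H3 genes, the lists (other H3, H4, chaperones and readers, replication, mitosis, heat check) and the marker genes were chosen with earlier results of these data known.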

Additional observations from a re-analysis of the deposited data

Results flagged for a closer look

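HTR3 had values of opposite sign at T48 in the 2 genotypes on TMM-scaled counts, but not on TPM, where T48 against T0 was 0.66 in WT and 0.14 in *morchex* (log2 ratio of the means). On the log2 scale of TMM-scaled counts, all 3 WT libraries at T48 lay above the WT mean at T0, by 0.56 on average, while both *morchex* libraries lay below the *morchex* mean at T0, with an average of -0.19. The interaction of genotype and recovery was -0.63 for HTR3 (SE 0.35, adjusted p = 0.266, edgeR's quasi-likelihood test), so the difference did not pass the test. The counts of HTR3 share reads with SDH2-1, and the part of that sharing in the difference was not tested.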

How the results depend on the processing

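Among the alternatives for the 17 results of single H3 genes that passed the test, 177 values kept their direction and an adjusted p under 0.05, 35 kept their direction only, and 0 reversed. HTR2, HTR13, HTR4 and HTR5 in heat (both genotypes), HTR2 and HTR8 for T48 against T0 in WT, and HTR4 between the genotypes at T48 passed in every alternative run. The number of members called over 2-fold in heat, 2 in WT, was 6 at any fold change, 5 without TMM, and 6 with limma on log2(TPM + 1) and 6 on log2(TPM + 0.1), and 1 to 5 when 1 library was left out. In *morchex* the number, 2, was 5 at any fold, 4 without TMM, and 4 and 4 with limma. At any fold the count went from 0 to 2 for T48 in WT, to 1 for T48 in *morchex* and to 3 for *morchex* against WT at T48. At a -log10 q of at least 10 0 members rather than 2 had a TPL peak in WT, and 2 rather than 6 in *morchex*. On TMM-scaled counts the log2 ratio of the H3.3 sums was -0.62 for heat in WT, -0.63 for heat in *morchex*, 0.0871 at T48 in WT, -0.12 at T48 in *morchex*, -0.13 for *morchex* against WT at T30 and -0.33 at T48, and that of the H3.1 sums was -0.97 for heat and -0.0048 at T48 in *morchex*. Leaving out 1 library gave -1.47 to -1.08 for the H3.1 sum in *morchex* heat and -0.50 to -0.15 for *morchex* against WT at T48. The cause of these moves was not tested. Over all genes, 46.3% of 2525 heat calls in WT were higher, and 20.3% of 3792 without TMM (52.0% and 26.9% in *morchex*). At T48 68.6% were higher in WT and 81.0% without TMM (52.8% and 68.2% in *morchex*). The correlations of same-numbered libraries, as deviations from their group means, were -0.20 to 0.17 over 35 pairs in the heat series. In Ler and *lug* they were -0.51 to -0.01 over 3 pairs. Groups of 2 or 3 libraries constrain such deviations, so this check cannot exclude a pairing by replicate number. With the replicate block 2 members were called in WT heat and 3 in *morchex* heat, and HTR2 and HTR8 in *morchex* against WT at T48 had adjusted p of 0.0511 and 0.0546 (edgeR). Calls over all genes between *lug* and Ler were 73, 0 with the replicate block, 217 with DESeq2 and 7 to 145 when 1 library was left out. Calls between *morchex* and WT at T30 were 111, 37 in a fit to these groups alone and 41 to 229 when 1 library was left out, and those of the interaction at T48 were 696 and 260 to 1033.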
